A study of Apostichopus japonicus with 3 samples.

Results

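Secreted lipases and amylases are the enzymes that an animal releases into the gut to break down dietary fat and starch. Here they were followed in gut tissue of Apostichopus japonicus, a sea cucumber. This deposit-feeding echinoderm stops eating and lets its gut shrink during aestivation, its summer dormancy. Isotigs are assembled transcript sequences, and the members were chosen by the text of their best protein match. An isotig was taken in where that text named a triacylglycerol lipase, a pancreatic lipase, an Rp2 lipase, an amylase or a secreted phospholipase A2. The rule found 11 isotigs among the 20712 in all, of which 10174 had any protein match. They comprised 2 triacylglycerol lipases, 2 Rp2 lipases, 1 secreted phospholipase A2, 5 alpha-amylases and 1 maltase-glucoamylase, which the rule took in because its name contains the word amylase. Of the 11, 10 reached a mean of 1 RPKM (reads per kilobase of isotig per 1000000 uniquely aligned reads) over the libraries, the filter used below. The alpha-amylase isotig11797 did not.

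Intestine was sampled at non-aestivation, in deep aestivation and at arousal, with 1 library for each stage. At least 15 individuals were used per stage, per the series' design text, and no label or header says whether their RNA was pooled. Totals of uniquely aligned reads were 1.02 M for non-aestivation, 0.893 M for deep aestivation and 0.945 M for arousal. With 1 library a stage no test between stages can be made, so each difference below has a size and a counting error only. The names of the non-aestivation and arousal tables are crossed against the sample labels, each bearing the code of the other stage. Labels were followed here. Should the table names be correct instead, values given for non-aestivation and arousal would change places, while a level in deep aestivation above or below both is the same under either reading.

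Pancreatic triacylglycerol lipase of vertebrates splits dietary triacylglycerol into fatty acids and monoacylglycerol. Rp2 lipase is a name for a pancreatic lipase-related protein, a relative that in mammals also acts on phospholipids and plant galactolipids. Group IB secreted phospholipase A2 frees a fatty acid from phospholipids in the gut lumen, and alpha-amylase cuts starch and glycogen inside the chain. Maltase-glucoamylase, by contrast, is held in the brush border of the mammalian intestine, where it releases glucose from the products of amylase. Echinoderms have no pancreas, and their digestive enzymes are made by the gut wall itself. Names here rest on protein similarity, with e-values from 6.6e-137 for isotig14872 to 5.2e-20 for isotig17458. For 8 of the 11 isotigs the best match was a protein of the sea urchin Strongylocentrotus purpuratus, as for 47.0% of the 10067 isotigs whose match names a species. The other 3, all alpha-amylases, matched proteins of an oyster (isotig11797), a shrimp (isotig14872) and a fruit fly (isotig16864) best.

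The 2 triacylglycerol lipases, 1 Rp2 lipase and 2 alpha-amylases had few or no reads in the non-aestivation and arousal libraries and many in deep aestivation. Together the 11 isotigs held 11.6 of every 100000 non-aestivation reads, with an exact 95% binomial interval of 9.64 to 13.9. Their share was 123 of every 100000 reads in deep aestivation (116 to 131), and 33.0 of every 100000 in arousal (29.5 to 36.9). In arousal 77.6% of these reads were those of the maltase-glucoamylase isotig19900. Per 100000 reads, the triacylglycerol and Rp2 lipases held 1.48 in arousal and 0.978 in non-aestivation. The alpha-amylases held 2.01 and 1.47, and the phospholipase A2 3.92 and 4.69. The highest level was in deep aestivation for 7 of the 11, in arousal for 2 and in non-aestivation for 2. In bulk tissue, more cells of a type and more RNA per cell cannot be told apart, which applies to every value below.

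**Figure D1:**
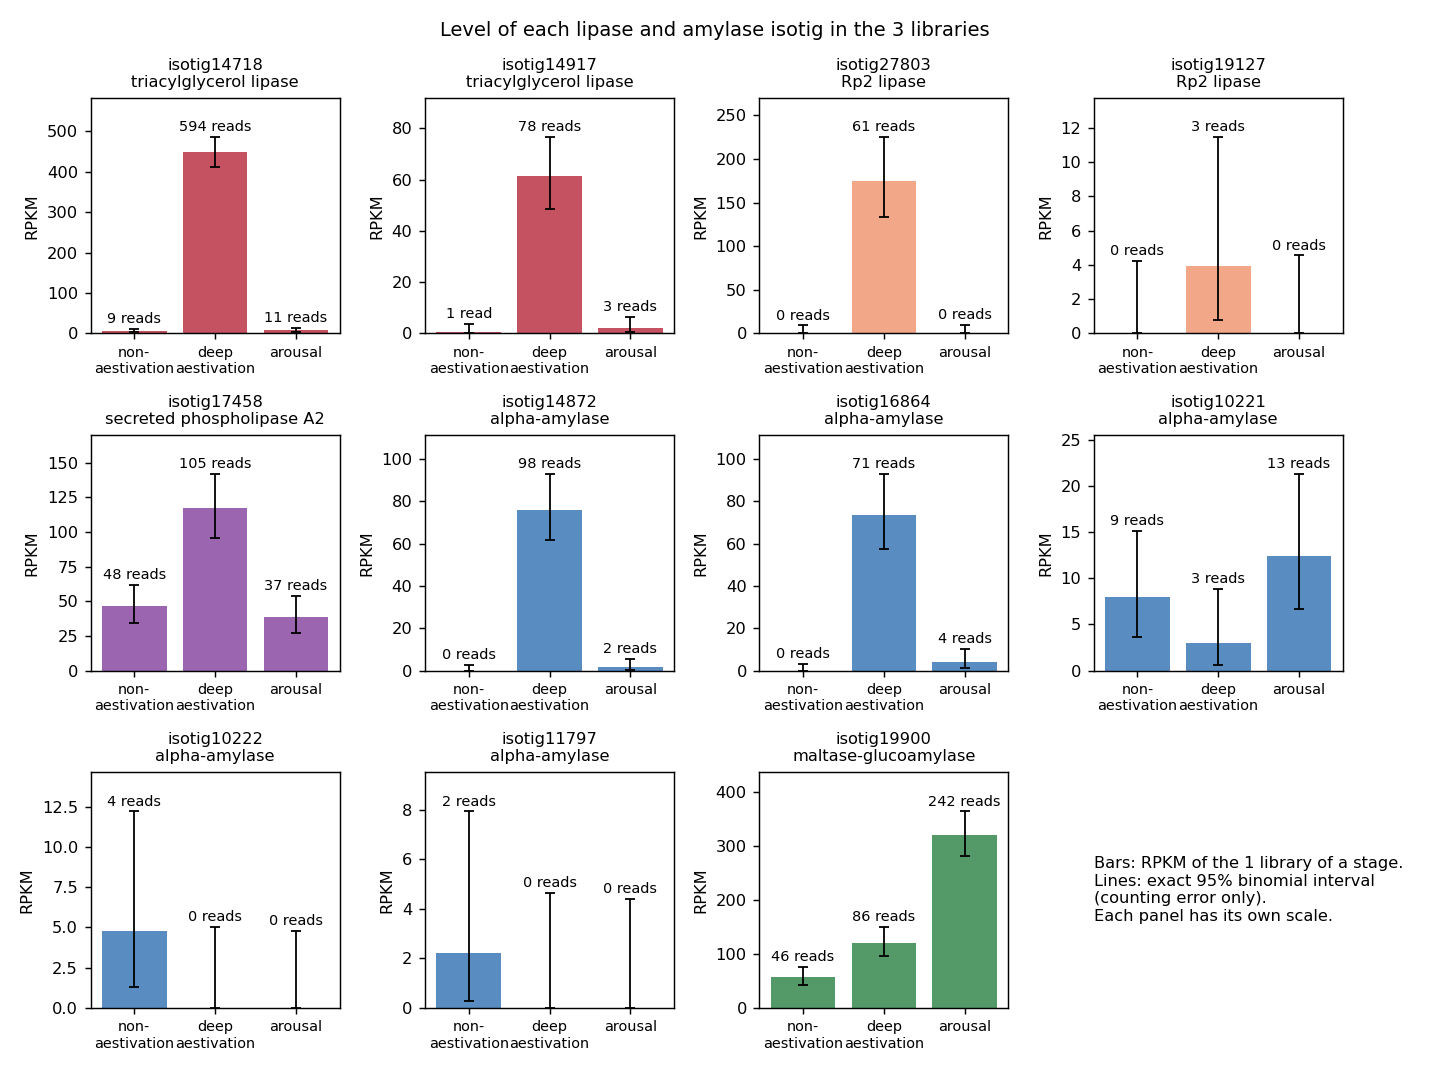
RPKM of each of the 11 isotigs in the 3 libraries, 1 panel per isotig with its own scale; bars are the value of the library, lines the exact 95% binomial interval, which covers counting error only, and the number of reads stands above each bar. The triacylglycerol lipases, isotig27803 and the alpha-amylases isotig14872 and isotig16864 are high in deep aestivation alone, while the maltase-glucoamylase match is highest in arousal with 242 reads.

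The leading lipase was isotig14718, 1486 bases long, a match to pancreatic triacylglycerol lipase (e-value 5.5e-94). It had 9 reads or 5.92 RPKM in non-aestivation (exact 95% interval 2.71 to 11.2), 594 reads or 448 RPKM in deep aestivation (412 to 485), and 11 reads or 7.84 RPKM in arousal (3.91 to 14.0). Deep aestivation thus stood far above both other libraries, which lay within each other's intervals, and it held 96.7% of all reads of this isotig. By RPKM it ranked 12023 of the 18327 isotigs listed in non-aestivation, 218 of 18385 in deep aestivation and 10559 of 17651 in arousal. Its share of reads was 75.6-fold higher in deep aestivation than in non-aestivation (95% interval 39.5 to 166) and 57.1-fold lower in arousal than in deep aestivation (31.7 to 115). Between arousal and non-aestivation the ratio was 1.32 (0.498 to 3.61), an interval that includes equal shares. Reads covered 28.0% of its length in non-aestivation, 99.3% of it in deep aestivation and 33.7% at arousal.

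The second triacylglycerol lipase, isotig14917, has the same best match at a weaker e-value (3.4e-61) and is 1424 bases long. It had 1 read in non-aestivation, 78 reads in deep aestivation and 3 at arousal, which is 0.687, 61.4 and 2.23 RPKM. This was the pattern of isotig14718 at a lower level, since in deep aestivation its 61.4 RPKM (48.5 to 76.6) lay below the 448 RPKM of isotig14718. It was 89.3-fold higher in deep aestivation than in non-aestivation, but with 1 read in non-aestivation the interval runs from 15.6 to 3.57e+03. In arousal it was 27.5-fold lower than in deep aestivation (9.07 to 136). Sequences of the isotigs were not used here, so whether the pair are 2 genes or parts of related transcripts is not known.

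Of the 2 Rp2 lipase isotigs, isotig27803 is a short fragment of 390 bases. It had 0 reads in non-aestivation, 61 reads in deep aestivation and 0 at arousal. Its 175 RPKM in deep aestivation (134 to 225) was the second highest level of the 11 isotigs in that library, and the 61 reads covered 89.7% of its length. A count of 0 allows up to 3 reads, or 7.52 RPKM in non-aestivation and 8.14 RPKM in arousal. Against the floor of 3 reads it was 23.3-fold higher in deep aestivation than in non-aestivation. The exact 95% interval of the ratio of 61 to 0 reads had its lower end at 18.4. Against the same floor it was 21.5-fold lower in arousal than in deep aestivation (lower end 17.0). The longer isotig19127 (857 bases), matched to another sea urchin protein of the same name, had 3 reads in deep aestivation and 0 in both other libraries, too few for a fold.

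The secreted phospholipase A2, isotig17458, was present in all 3 libraries and differed less. It had 48 reads or 46.7 RPKM in non-aestivation (34.4 to 61.9), 105 reads or 117 RPKM in deep aestivation (95.6 to 142), and 37 reads or 38.9 RPKM in arousal (27.4 to 53.7). The interval of deep aestivation lay above those of the other libraries, which overlapped. Deep aestivation was 2.51-fold higher than non-aestivation (1.76 to 3.60), and arousal was 3.00-fold lower than deep aestivation (2.05 to 4.50). Its best match is a group IB pancreatic-type enzyme, and the e-value was the weakest of the 11.

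Of the alpha-amylases, a pair was high in deep aestivation and the other 3 had few reads. Isotig14872, with the strongest match of the 11, had 0 reads in non-aestivation, 98 in deep aestivation (76.1 RPKM, 61.8 to 92.7) and 2 in arousal (1.47 RPKM). Isotig16864 had 0, 71 and 4 reads in the same order, and its 73.5 RPKM in deep aestivation (57.4 to 92.7) lay within the interval of isotig14872. Against the floor of 3 reads in non-aestivation, isotig14872 was 37.4-fold higher in deep aestivation (lower end of the 95% interval of the ratio 29.9). Isotig16864 was 27.1-fold higher (lower end 21.5). Arousal was 51.9-fold lower than deep aestivation for isotig14872 (14.0 to 434) and 18.8-fold lower for isotig16864 (7.02 to 70.8). Neither isotig was above the floor of 3 reads in non-aestivation, and arousal held 2.00% and 5.33% of their reads.

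The alpha-amylases with sea urchin matches had low counts, and neither was highest in deep aestivation. Isotig10221 had 9 reads in non-aestivation, 3 reads in deep aestivation and 13 at arousal (7.94, 3.03 and 12.4 RPKM). Isotig10222 shares its best match and had 4, 0 and 0 reads. Since only uniquely aligned reads were counted, reads common to these 2 isotigs could not be assigned, and their split is uncertain. Summed, the pair had 3 reads in deep aestivation and 13 in non-aestivation, 3.78-fold lower (1.04 to 20.7). In arousal it had 13 reads, 4.09-fold higher than the 3 of deep aestivation (1.13 to 22.4). These intervals just exclude equal shares at 95%, and neither isotig alone met the stricter criterion used below. The oyster-like isotig11797 had 2 reads in non-aestivation and 0 in the other libraries, under the floor in each.

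Maltase-glucoamylase, isotig19900, followed another order of stages. It had 46 reads or 56.4 RPKM in non-aestivation (41.3 to 75.2), 86 reads or 121 RPKM in deep aestivation (96.6 to 149) and 242 reads or 321 RPKM in arousal (282 to 364). No interval overlapped another, and arousal was the highest. Deep aestivation was 2.14-fold higher than non-aestivation (1.48 to 3.13), and arousal was 2.66-fold higher than deep aestivation (2.07 to 3.44) and 5.69-fold higher than non-aestivation (4.14 to 7.98). With median-ratio scaling its log2 ratio in deep aestivation over non-aestivation was 0.94, under the 2-fold threshold. This was the one call among the 11 isotigs that a change of scaling or pseudocount altered.

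**Figure D2:**
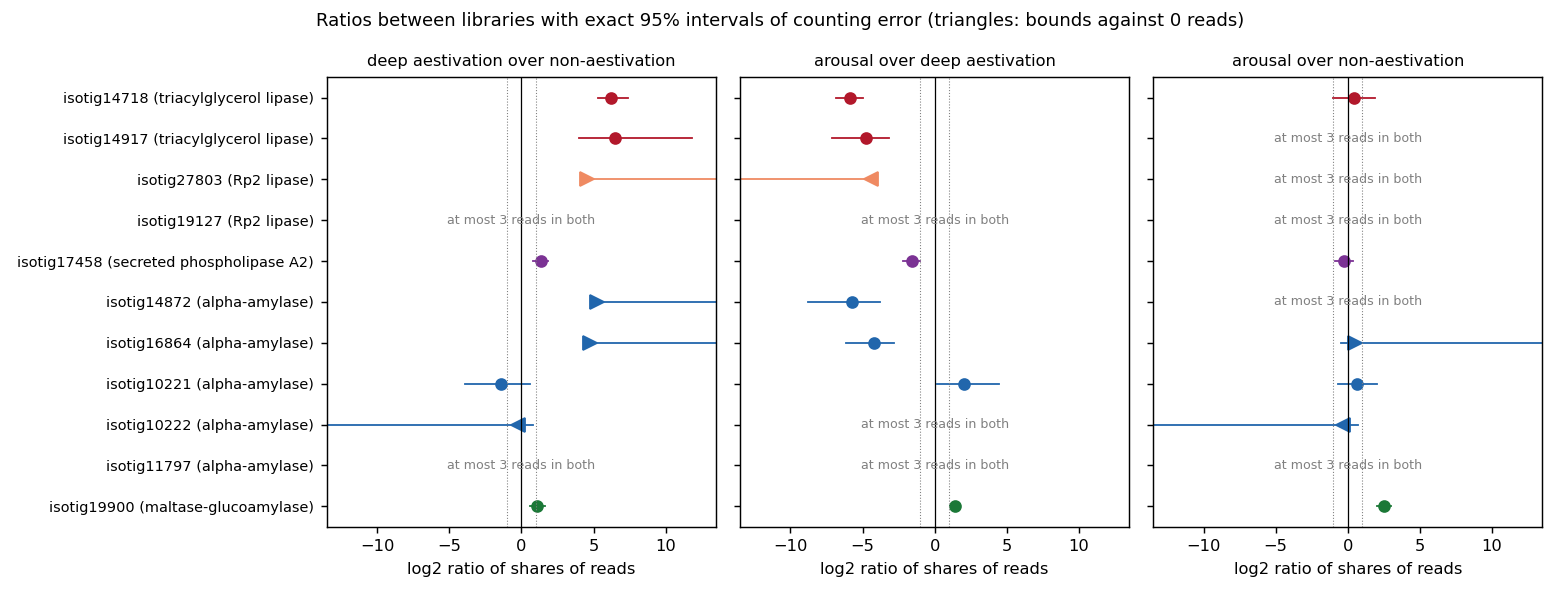
log2 ratio of the shares of reads for each isotig in the 3 comparisons, with the stage named first over the stage named second; lines are exact 95% intervals of counting error, triangles are bounds against 0 reads (floor of 3 reads), and dotted lines mark 2-fold. In deep aestivation over non-aestivation the 2 triacylglycerol lipases, isotig27803, isotig14872 and isotig16864 lie far to the right, in arousal over deep aestivation far to the left, and in arousal over non-aestivation only isotig19900 lies wholly beyond 2-fold.

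Calls across the isotigs were set against all isotigs tested. An isotig was called where log2(RPKM + 0.5) differed by at least 2-fold and the counting interval of the ratio excluded equal shares at an error rate of 0.1%, which compares 2 libraries and not the conditions. In deep aestivation over non-aestivation, 7 of the 10 members tested were called higher, where 5.19% of the 18352 isotigs tested were, and 0 were called lower, where 4.06% were. The 7 were both triacylglycerol lipases, isotig27803, the phospholipase A2, isotig14872, isotig16864 and the maltase-glucoamylase. At 2-fold alone 8 were higher and 2 lower, against 24.5% and 17.7% of all isotigs. The additions were isotig19127, higher with 3 reads, and isotig10221 and isotig10222, lower with 12 and 4 reads over the 2 libraries.

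In arousal over deep aestivation, 6 of the 10 members tested were called lower, where 5.31% of all isotigs tested were, and 1 was called higher, where 3.37% were. The 6 were the same isotigs as above apart from the maltase-glucoamylase, which was the 1 called higher. At 2-fold alone 7 were lower and 2 higher, against 25.6% and 15.3%. The additions were isotig19127, lower with 0 and 3 reads, and isotig10221, higher with 13 and 3 reads. With the 95% interval in place of the stricter one, 6 were lower and 2 higher, against 10.7% and 6.45%. Both comparisons use the deep aestivation library, so they are not independent of each other. By both criteria at once, 6 of the 10 members tested stood above both other libraries in deep aestivation, as did 358 isotigs in all (1.95%). These 6 hold either way round for the crossed file names.

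Arousal over non-aestivation separated the isotigs little. The maltase-glucoamylase was called higher, 1 of 10 tested where 3.84% of all isotigs tested were, and 0 were called lower, where 5.21% were. At 2-fold alone 4 were higher and 1 lower, against 18.7% and 22.9%. The additions were isotig14872, isotig14917 and isotig16864, higher with at most 4 reads in either library, and isotig10222, lower with 0 and 4 reads. Of the 6 isotigs high in deep aestivation, isotig14718 and the phospholipase A2 had more than 4 reads in both libraries. Their ratios of arousal over non-aestivation were 1.32, as above, and 0.834 (0.528 to 1.31). Isotig16864 had 4 reads in arousal and 0 in non-aestivation (1.44-fold against the floor of 3 reads, lower end of the 95% interval of the ratio 0.714). The other 3 (isotig14917, isotig14872 and isotig27803) had at most 3 reads in either library and no fold can be given.

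The median log2 ratio of the 10 isotigs tested was 4.42 in deep aestivation over non-aestivation, against 0.16 for all isotigs. It was -3.61 in arousal over deep aestivation against -0.16, and 0.49 in arousal over non-aestivation against -0.04. Members at 0 reads move these medians through the pseudocount of 0.5 RPKM: set to their bound, they gave 2.93, -2.82 and 0.24. Over all 11 isotigs the medians were 3.14, -3.14 and 0.38.

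**Figure D3:**
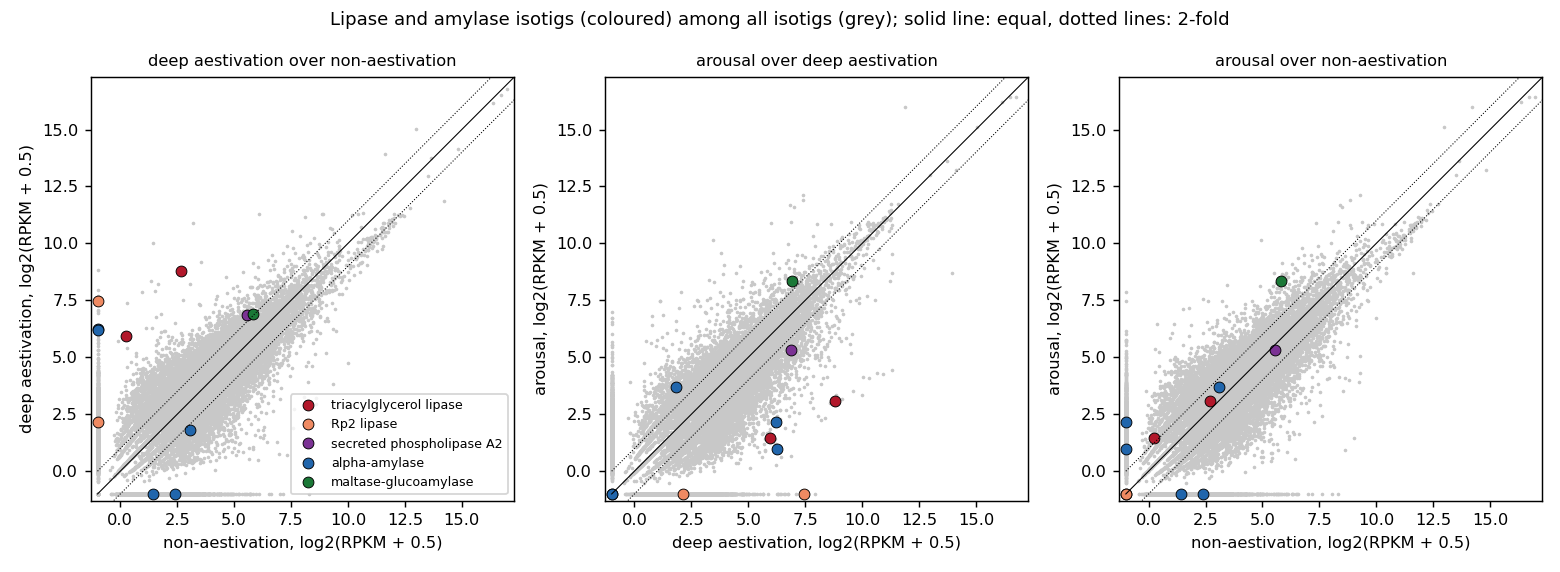
log2(RPKM + 0.5) of every isotig (grey) and of the 11 lipase and amylase isotigs (coloured by class) in the 2 libraries of each comparison, with the second-named stage on the horizontal and the first-named on the vertical axis; the solid line marks equal levels and the dotted lines 2-fold. Isotigs at 0 reads lie at -1.0 on either axis. The triacylglycerol lipases, the Rp2 lipase isotig27803 and the amylases isotig14872 and isotig16864 lie at the outer edge of the cloud in both comparisons with deep aestivation and near the low end in arousal over non-aestivation.

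Summed by class, lipases held the most reads in deep aestivation. The 4 triacylglycerol and Rp2 lipase isotigs held 10 reads in non-aestivation, 736 reads in deep aestivation and 14 at arousal, or 0.978, 82.4 and 1.48 of every 100000. That was 84.3-fold higher in deep aestivation than in non-aestivation (45.6 to 177) and 55.6-fold lower in arousal than in deep aestivation (32.9 to 102). Isotig14718 held 80.7% of these reads in deep aestivation. The 5 alpha-amylase isotigs held 15, 172 and 19 reads, or 1.47, 19.3 and 2.01 of every 100000. Deep aestivation was 13.1-fold higher than non-aestivation (7.74 to 24.0), and arousal was 9.58-fold lower than deep aestivation (5.95 to 16.3). The members behind the amylase sum changed with the stage, since isotig14872 held 57.0% of it in deep aestivation while isotig10221 held 60.0% in non-aestivation and 68.4% in arousal. Without isotig14872 the log2 ratio of the amylase sum was 2.50 in deep aestivation over non-aestivation, in place of 3.71, and -2.20 in arousal over deep aestivation, in place of -3.26.

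**Figure D4:**
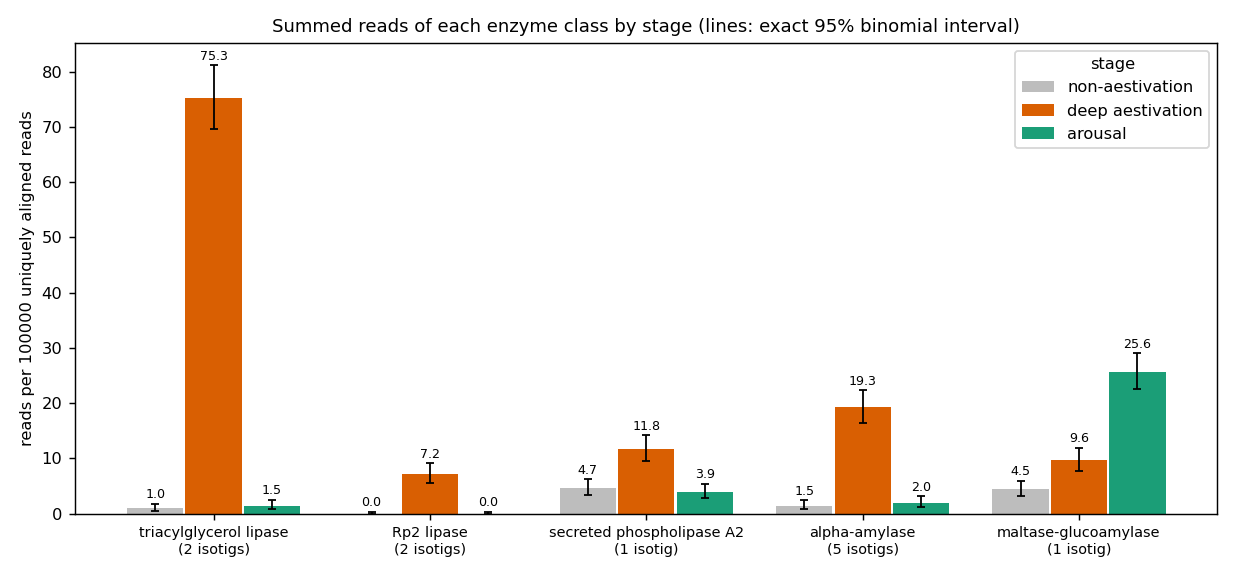
Summed reads of each enzyme class per 100000 uniquely aligned reads in non-aestivation (grey), deep aestivation (orange) and arousal (green), with exact 95% binomial intervals of counting error. Triacylglycerol lipases stand at 0.978, 75.3 and 1.48 in these stages, while maltase-glucoamylase is highest in arousal at 25.6.

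Other steps of fat digestion were compared by lists of protein match text. Of 16 other lipase and phospholipase isotigs, 15 were tested, and in deep aestivation 5 were above and 0 below their non-aestivation level by the same criterion, where 5.19% and 4.06% of all isotigs tested were (median log2 ratio 1.01). The highest among those with at least 50 reads was a match to phospholipase B1, isotig13224, a brush border enzyme of mammals that acts on phospholipids and other lipid esters. It had 145 reads in deep aestivation and 21 in non-aestivation (7.91-fold, 4.98 to 13.2), and 63 in arousal. The lowest with at least 50 reads was a phospholipase A2 match, isotig17886, with 34 reads in deep aestivation and 39 in non-aestivation (1.00-fold lower, 0.616 to 1.64). In arousal over deep aestivation 3 were lower and 1 higher (median -0.58), against 5.31% and 3.37% of all isotigs. The 1 higher was the phospholipase match isotig14471, with 29 reads in arousal and 5 in deep aestivation. Among those with at least 50 reads, another phospholipase B1 match, isotig16370, was lowest, with 11 reads in arousal and 36 in deep aestivation (3.46-fold lower, 1.72 to 7.54). A gastric-type lipase F match, isotig25663, was highest among those with at least 50 reads, with 36 and 22 reads (1.55-fold, 0.885 to 2.76). In arousal over non-aestivation 3 were higher and 0 lower, against 3.84% and 5.21% of all isotigs. The 3 were isotig13224, isotig14471 (29 and 5 reads) and the phospholipase B1 match isotig15100 (26 and 1 reads). Among those with at least 50 reads, a match named only lipase, isotig21065, had the highest ratio, with 22 and 6 reads (3.97-fold, which was not called).

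Downstream of the lipases, 13 isotigs of fatty acid binding, activation, re-esterification and lipoprotein assembly went both ways. In deep aestivation over non-aestivation 4 were higher and 2 lower (median -0.01), against 5.19% and 4.06% of all isotigs. In arousal over deep aestivation 5 were higher and 0 lower (median -0.08), against 3.37% and 5.31%. Among these 5, isotig03719, isotig03721 and isotig03722 share their match text, and whether they are separate genes is not known. Intestinal fatty acid binding protein 2, isotig19264, which carries fatty acids inside gut cells, had 2849 reads in deep aestivation and 16574 in non-aestivation, 5.08-fold lower (4.88 to 5.29). Apolipoprotein B, isotig13070, the scaffold of secreted lipoprotein particles, was 8.46-fold higher (8.05 to 8.89), with 13091 and 1773 reads. A diacylglycerol acyltransferase, isotig13102, which rebuilds triacylglycerol inside cells, had 118, 102 and 76 reads in non-aestivation, deep aestivation and arousal and was not called. The lipase isotig14718 was thus highest in the library in which fatty acid binding protein 2 (isotig19264) was lowest and apolipoprotein B was highest.

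Of 18 other maltase, sucrase, lactase and glucosidase isotigs, 17 were tested. In deep aestivation over non-aestivation 4 were higher and 4 lower (median 0.38), against 5.19% and 4.06% of all isotigs. The 4 higher were maltase, sucrase-isomaltase and acid alpha-glucosidase matches, and the 4 lower lactase-phlorizin hydrolase and cytosolic beta-glucosidase matches. In arousal over deep aestivation 8 were higher and 1 lower (median 0.15), against 3.37% and 5.31%, and in arousal over non-aestivation 10 were higher and 2 lower (median 1.46), against 3.84% and 5.21%. The maltase-glucoamylase match, highest in arousal, was called in the direction of the larger number in both of these comparisons. Of the 8 higher in arousal over deep aestivation, most were lactase-phlorizin hydrolase or cytosolic beta-glucosidase matches. A sucrase-isomaltase-like match, isotig13530, was also highest in deep aestivation, with 17, 104 and 8 reads in non-aestivation, deep aestivation and arousal. It was 7.01-fold higher in deep aestivation than in non-aestivation (4.17 to 12.5) and 13.8-fold lower in arousal than in deep aestivation (6.73 to 32.7). At the other end, a lactase-phlorizin hydrolase match, isotig14693, had 75, 2 and 0 reads in these stages, and a cytosolic beta-glucosidase match, isotig16411, had 156, 25 and 548. Another lactase-phlorizin hydrolase match, isotig27463, had 72, 88 and 362 reads. The sodium-glucose cotransporter match isotig14172, which takes up glucose, had 7, 22 and 43 reads and was called in arousal over non-aestivation alone (6.65-fold higher, 2.96 to 17.5). The 2 glycogen synthase matches were not called in deep aestivation over non-aestivation, and isotig22725 was 5.04-fold higher in arousal than in deep aestivation (2.08 to 14.7), with 32 and 6 reads.

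Among 6 trypsin and carboxypeptidase isotigs, the secreted protein-digesting enzymes, deep aestivation had 3 above and 1 below the non-aestivation level, against 5.19% and 4.06% of all isotigs. Arousal had 3 below and 1 above the deep aestivation level, against 5.31% and 3.37%. The trypsin-like isotig26752 had 1, 405 and 4 reads in non-aestivation, deep aestivation and arousal, the order of levels of the triacylglycerol lipases. Isotig13602, with the same match text, had 1220, 7 and 27 reads. These 2 trypsin-like isotigs thus lay in opposite directions. Isotig21645, again with that match text, had 6, 1169 and 12 reads, the order of isotig26752. The anionic trypsin match isotig13029 had 54, 35 and 216 reads, highest in arousal like the maltase-glucoamylase.

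The isotigs most like 3 of the enzymes were found by the Euclidean distance of log2(RPKM + 0.5), centred over the 3 libraries, among 3387 others with a protein match and at least 50 reads. With 3 libraries such likeness is a description only, and at 0 reads the distance depends on the pseudocount of 0.5 RPKM. Within a distance of 1 lay 4 isotigs for isotig14718, 1 for isotig27803 and 3 for isotig16864. Closest to isotig14718 was isotig20607, matched to a protein without a functional name (2, 196 and 3 reads in non-aestivation, deep aestivation and arousal, distance 0.31). It was followed by a match to proprotein convertase subtilisin/kexin type 9 (isotig07395, 0, 69 and 0 reads, distance 0.53) and a hypothetical protein (isotig18113, 2, 275 and 4 reads, distance 0.62). Closest to isotig27803 were another subtilisin/kexin type 9 match (isotig07647, 0, 92 and 0 reads, distance 0.96), the trypsin-like isotig21645 (6, 1169 and 12 reads, distance 1.29) and a further type 9 match (isotig07646, 0, 60 and 0 reads, distance 1.48). For isotig16864 they were a match to a T cell-specific protein (isotig16311, 0, 51 and 3 reads, distance 0.43), a hypothetical protein (isotig06729, 0, 81 and 5 reads, distance 0.68) and isotig21801, again without a functional name (1, 140 and 4 reads, distance 1.00).

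Marker lists were read beside these values. The 8 gut lining isotigs, which include the maltase-glucoamylase match, held 1.64% of reads in non-aestivation, 0.358% of reads in deep aestivation and 5.48% at arousal, most of it the fatty acid binding protein 2 isotig19264, and none was at 0 in any library. Without that isotig the other 7 held 0.0143%, 0.0390% and 0.0457%. Of the 8, deep aestivation had 3 above and 1 below the non-aestivation level, against 5.19% and 4.06% of all isotigs tested. Their median log2 ratio was 1.09, against 0.16 for all isotigs. Among those above, the aminopeptidase N matches isotig05197 and isotig05199 share their match text and may not be separate genes. The 12 coelomocyte isotigs held 0.0226%, 0.0503% and 0.0356%, with 2, 1 and 3 of them at 0. Of 9 tested, deep aestivation had 3 above and 0 below the non-aestivation level, against the same shares of all isotigs. The 33 muscle isotigs held 0.174%, 0.129% and 0.112% (6, 6 and 9 at 0) and the 11 neuronal isotigs 0.0305%, 0.0289% and 0.00974% (0, 2 and 2 at 0). In that comparison 1 was above and 3 below of 24 muscle isotigs tested, and 0 above and 1 below of 10 neuronal isotigs. The gonad terms matched 0 isotigs. The part of these cell types in the lipase and amylase levels was not tested.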

How the data were processed

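Messenger RNA of intestine was sequenced in 3 libraries, 1 per stage. Per the labels' protocols, poly(A) RNA was fragmented, cDNA was primed at random, and fragments were enriched by PCR. CASAVA 1.5 is named in the submitters' processing notes, and an aligner and an assembler were not given in the sources used here. The authors deposited, per the file headers, for each isotig a count of uniquely aligned reads, its length, the percent of its length covered, and an RPKM. Isotigs absent from a table were taken as 0 reads. RPKM recomputed from the deposited counts and lengths differed by a relative 4.96e-15 at most.

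Ratios are ratios of shares of reads with exact conditional binomial (Clopper-Pearson) 95% intervals. Intervals, bounds (floor of 3 reads) and calls cover counting error only, since 1 library a stage gives no measure of variation between animals or libraries. Reads amplified by PCR carry no molecular identifiers and need not be independent, so the intervals may be too narrow even for counting error. Calls used all 18352 isotigs with a mean of at least 1 RPKM and a pseudocount of 0.5 RPKM, and the procedure was tested on simulated data. The simulated counts were Poisson, with changes placed only in isotigs above a minimum expected count. Variation between libraries and changes from few reads were therefore not tested. Python 3.11.15, pandas 2.3.3, numpy 2.4.6 and SciPy 1.17.1 were used.

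Members, lists and marker terms were chosen with earlier results of these data known. All members are named, and from each list the isotigs with the highest and lowest ratio among those with at least 50 reads. From some lists, further isotigs are named beside these. A gonad marker term that also took in the word binding was corrected. Alternatives were other scalings, pseudocounts, filters and call rules. Sequences were not used here.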

Additional observations from a re-analysis of the deposited data

How the results depend on the processing

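No paired analysis was possible because each stage has 1 library, and for the same reason no replicate could be left out. Depth limits isotigs with few reads: of the 11, 4 had 0 reads in non-aestivation, in deep aestivation 2 did, and 4 in arousal. Across 3 scalings and 2 pseudocounts, 1 call changed, that of isotig19900 given above. None of 165 recomputed log2 ratios of single isotigs changed sign, which was partly fixed in advance. A pseudocount cannot change a sign, nor can scaling where a library had 0 reads. Median-ratio scaling shifted the median of all isotigs by -0.12 in deep aestivation over non-aestivation and by 0.16 in arousal over deep aestivation, and upper-quartile scaling by 0.16 in the second of these.

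In deep aestivation over non-aestivation, the number of members lower was 0, and became 2 at 2-fold alone and 1 with stages by the file names. The number higher, 7, was 6 with median-ratio scaling, without the maltase-glucoamylase match and with stages by the file names, and 8 at 2-fold alone. In arousal over deep aestivation, the number higher was 1, and became 2 at 2-fold alone, 2 with the 95% interval (isotig10221 added), 0 without the maltase-glucoamylase match and 0 with stages by the file names. In arousal over non-aestivation, the number higher was 1, and became 4 at 2-fold alone, 0 without the maltase-glucoamylase match and 0 with stages by the file names. The number lower was 0, and became 1 at 2-fold alone and 1 with stages by the file names. The last 2 alternatives were chosen after seeing the data.

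Without its member with most reads, the log2 ratio of the summed amylases was 2.50 in deep aestivation over non-aestivation and -2.20 in arousal over deep aestivation. For all 11 isotigs, without isotig14718, it was 2.39 in place of 3.40, and -0.83 in place of -1.90. These sums have fewer members by construction. That without isotig14718 still included the maltase-glucoamylase isotig19900, which held 77.6% of the arousal reads of all 11.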
